A study of Mus musculus with 32 samples.

Results

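Cell cycle inhibitors and genes tied to quiescence are described here in CD8+ T cells of mice. They are 10 named genes: Cdkn1a, Cdkn1b, Cdkn2a, Cdkn2c, Cdkn2d, Gadd45a, Gadd45b, Gadd45g, Btg1 and Btg2. They were taken by name from a table of 46517 gene names, and all 10 were found in it. Expression was measured by bulk RNA sequencing in 32 libraries of Pmel CD8+ Thy1.1+ T cells, whose transgenic antigen receptor recognizes the melanocyte protein Pmel. All cells therefore share 1 receptor specificity. The mice were C57BL/6, aged 16 weeks, and labelled throughout as having melanoma-associated vitiligo, the naive samples included. The 8 groups of 4 libraries are cells from skin, cells from liver, cells from lung, cells from tumor (titled TIL), memory cells from lymph node (Mem_LN), cells from spleen, lymph node cells titled TDLN_D12 and called day 12 below, and naive cells from spleen. The series places skin, lung, liver and lymph node cells 45 days after tumor surgery. No time is stated for the naive and spleen groups or for the tumor group.

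Cells leave and re-enter the division cycle under the control of cyclin-dependent kinases. The Cip/Kip proteins p21 (Cdkn1a) and p27 (Cdkn1b) bind cyclin-kinase complexes, and the INK4 proteins p16 (from Cdkn2a), p18 (Cdkn2c) and p19 (Cdkn2d) bind the kinases Cdk4 and Cdk6 alone. Gadd45 proteins are small stress-induced proteins that bind MAP kinase kinase kinases, Cdk1 and PCNA, and Btg1 and Btg2 are anti-proliferative proteins that recruit the CCR4-NOT deadenylase to messenger RNA. In T cells, p27 and the Btg proteins are known for keeping naive cells at rest, p18 for limiting division after receptor signals, and Gadd45b and Gadd45g for sustaining p38 signalling and interferon gamma production.

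Values are in TPM, a transcript level scaled for transcript length and summing to the same total in every library. Read counts were not among the values used, so depth and counting error are unknown. Differences are given as log2 changes of TPM + 1 with their standard error (SE) from limma, and a gene was called when its Benjamini-Hochberg adjusted p over the 19738 genes tested was under 0.05. All 10 members were tested. The labels do not state which samples came from separate animals, so p-values measure the spread between these samples. The SE is pooled over the 8 groups, while the SD of residuals within a group ran between 0.303 at day 12 and 1.33 in liver.

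T cell identity genes, 17 in number, were above 1 TPM on average in every group. Their sum was under 0.5 of the median of all libraries (28450 TPM) in 6 libraries, namely replicates 2, 3 and 4 of liver (8109, 8303 and 3377) and replicate 4 of skin (5647), of tumor (14061) and of spleen (11989). Keratinocyte genes summed to 407 to 5880 TPM in skin and 229 to 1729 in tumor, against 0.2 to 11.9 in spleen. Liver held the most myeloid, hepatocyte and erythroid RNA (mean sums of 12948, 12856 and 34559 TPM, against 3274, 144 and 608 in spleen), and B cell genes had the highest means in spleen (5342) and lung (4589). Lung replicate 3 stood apart, with 14198 TPM of B cell, 10364 of hepatocyte and 23703 of erythroid genes, against at most 3062, 22.9 and 1865 in the other lung libraries. In bulk samples, fewer cells of a type and less RNA per cell cannot be told apart. Per the protocols, collagenase IV was used on skin and liver, Liberase on lung, and no enzyme on lymph nodes, so tissue and dissociation cannot be told apart. Liver replicate 2 lists Cdkn2a, Cdkn2c and Gadd45a at 0, and had the fewest genes above 0 of all libraries (10732).

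**Figure D1:**
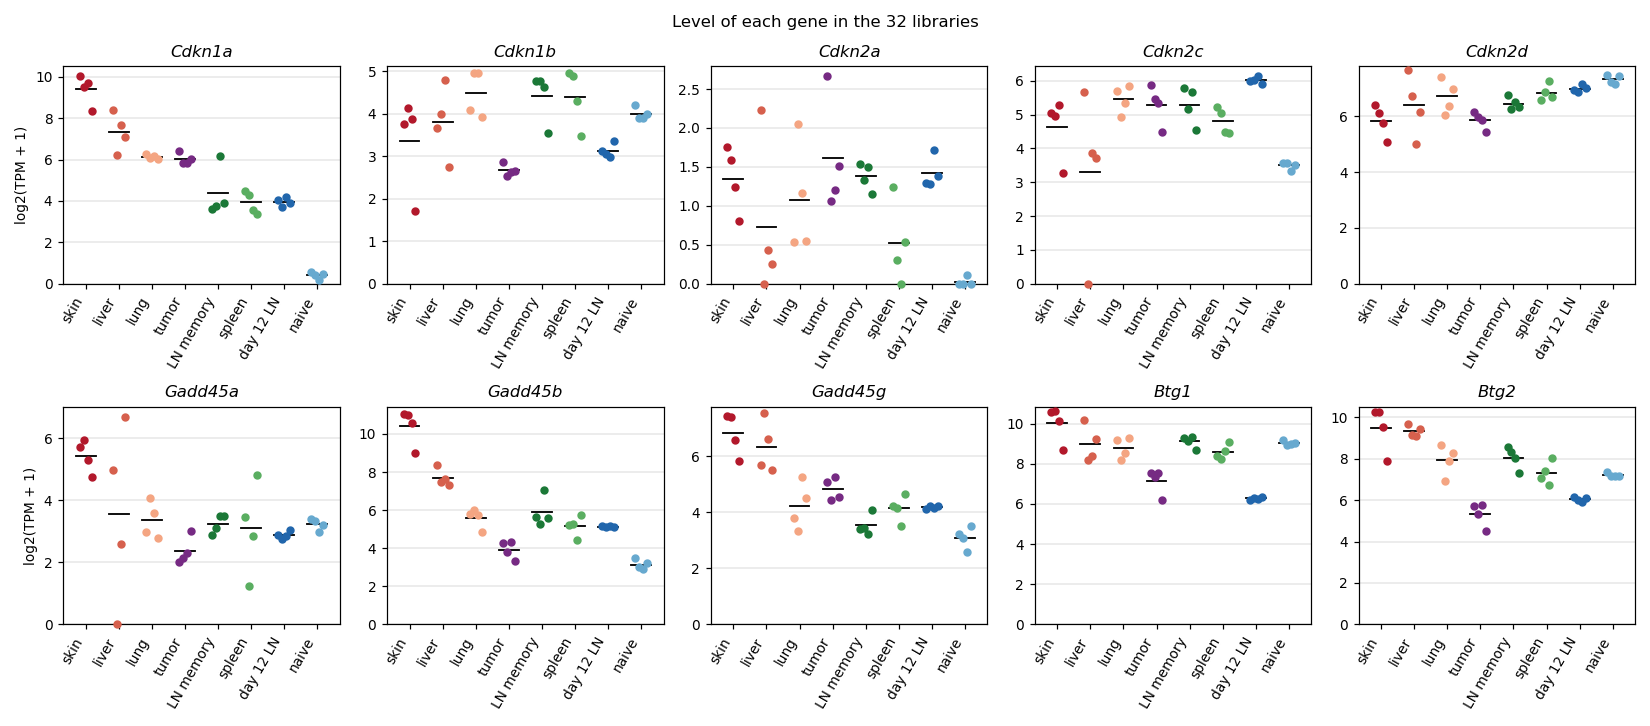
Levels of the 10 members as log2(TPM + 1), 1 point per library and a bar at each group's mean of these log2 values, with skin at the left and naive cells at the right. On the TPM scale, Cdkn1a and Gadd45b have their highest group mean in skin (733 and 1547 TPM) and their lowest in naive cells (0.335 and 7.94 TPM). Btg1 is lowest at day 12 (72.6 to 79.8 TPM).

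Cdkn1a, the gene of p21, lies on mouse chromosome 17 from 29090976 to 29100727 on the plus strand (mm10), and an unnamed transcript on the opposite strand overlaps it by 1046 bases. It had the widest range of the cyclin-kinase inhibitors. It was at 1049, 730.0, 827 and 325 TPM in skin, 340.5, 73.4, 202 and 136 in liver, and 77.0, 67.1, 70.7 and 65.3 in lung. Tumor libraries held 83.7, 55.3, 56.2 and 63.2 TPM, lymph node memory libraries 11.2, 12.4, 71.9 and 14.1, and spleen libraries 21.4, 18.3, 10.8 and 9.50. Day 12 libraries held 15.4, 12.1, 17.2 and 13.9 TPM, against 0.46, 0.36, 0.15 and 0.37 in naive libraries. Every library of the other groups was thus above every naive one. In the order of group means, skin (733 ± 303, SD, n = 4 as throughout), liver (188 ± 114), lung (70.01 ± 5.15), tumor (64.6 ± 13.2), lymph node memory (27.4 ± 29.7), spleen (15.02 ± 5.78), day 12 (14.7 ± 2.16) and naive cells (0.335 ± 0.131), neighbouring groups overlapped except day 12 and naive. Lymph node memory replicate 3, at 71.9 TPM, stood apart from its group, whose other libraries were between 11.2 and 14.1.

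Cdkn1b, the gene of p27 (chromosome 6, 134920401 to 134925513, plus strand), moved within a narrower range. Its level was 4.80 to 6.32 TPM in tumor libraries and 6.87 to 9.30 at day 12, against 13.9 to 17.5 in naive cells. Spleen (10.1 to 30.1), lymph node memory (10.6 to 26.3) and lung libraries (14.3 to 30.3) reached the highest values. Skin libraries held 2.29 to 16.5 TPM and liver libraries 5.70 to 26.7. Day 12 and tumor were the only neighbours in the order of means that did not overlap. The 2 groups with the most proliferation RNA, day 12 and tumor, were the 2 with the least Cdkn1b.

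Among the INK4 genes, Cdkn2c (chromosome 4, 109660876 to 109667189, minus strand) had its lowest group mean on the TPM scale in naive cells. Liver replicate 2 listed it at 0, and on the log2 scale the liver mean was below that of naive cells. Cdkn2c was at 62.0, 64.4, 69.2 and 59.4 TPM at day 12, against 10.8, 10.9, 9.09 and 10.4 TPM in naive cells. The day 12 libraries were above all libraries of every other group, with lung next (44.0 ± 12.1 TPM), then tumor (40.5 ± 15.1), lymph node memory (40.3 ± 14.6), spleen (27.6 ± 7.57), skin (27.1 ± 12.7), liver (18.8 ± 21.5) and naive cells (10.3 ± 0.841), and all these neighbours overlapped. Cdkn2d (chromosome 9, 21288410 to 21291407, minus strand) had the opposite place of naive cells: their libraries held 143 to 178 TPM and were above the day 12 libraries at 116 to 139.9. The remaining groups of Cdkn2d followed with overlapping ranges and ended with skin (32.9 to 82.8 TPM) and tumor (41.8 to 70.2 TPM). Cdkn2a (chromosome 4, 89274471 to 89294653, minus strand) was low everywhere, at no more than 5.34 TPM, a tumor library. It was listed at 0 in 3 of 4 naive libraries and at 0.08 TPM in the other, and reached 1.43 to 2.28 TPM at day 12 and 1.23 to 1.89 TPM in lymph node memory cells. Its row pools transcripts for p16 and for the p53 regulator Arf, which start at different sites.

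Of the Gadd45 genes, Gadd45b (chromosome 10, 80930073 to 80932204, plus strand) had the highest levels. It was at 2094, 2035, 1546 and 513 TPM in skin, 331, 177, 199.9 and 159.9 in liver, and 49.6, 38.0, 133 and 46.3 in lymph node memory cells. Spleen libraries held 36.9, 37.0, 20.9 and 52.8 TPM, day 12 libraries 34.6, 33.6, 34.3 and 34.2, and naive libraries 10.02, 7.03, 6.42 and 8.30. Skin was above liver and liver above all other groups without overlap, and day 12 lay above tumor (14.8 ± 4.80 TPM) and naive cells (7.94 ± 1.59 TPM). Gadd45g (chromosome 13, 51846678 to 51848468, plus strand) was at 173, 170.5, 95.6 and 56.2 TPM in skin and 50.6, 185, 97.9 and 44.8 in liver, against 17.7, 16.8, 10.6 and 24.5 TPM in spleen. Skin and liver overlapped for Gadd45g, and both were above the next group, tumor (20.6 to 37.5 TPM). Gadd45a (chromosome 6, 67035096 to 67037457, minus strand), the family member induced by p53, was at 25.9 to 60.9 TPM in skin and varied from 0 to 103 TPM among the liver libraries. Its other groups held 1.34 to 27.1 TPM and all neighbours overlapped. It overlaps E230016M11Rik on the opposite strand by 859 bases. That gene averaged 1.05 TPM, and since the counting is not stated to use strand, reads of the pair cannot be told apart.

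Btg1 and Btg2 were among the most abundant of the members. Btg1 (chromosome 10, 96617006 to 96622809, plus strand) was at 72.6, 78.4, 75.7 and 79.8 TPM at day 12, against 584, 489, 505 and 518 TPM in naive cells. Lymph node memory libraries held 626, 566, 652 and 411 TPM, a range that overlaps that of naive cells. Tumor libraries held 183, 163, 188 and 73.2 TPM of Btg1, and skin libraries 1539, 1581, 1132 and 412, against 329, 299, 400.4 and 539.5 TPM in spleen. The rows of 2 Btg1 pseudogenes held at most 0.43 TPM. The only neighbours in the order of means that did not overlap were spleen and tumor, so skin, liver, lymph node memory, naive, lung and spleen cells could not be ordered by the ranges of neighbours. Btg2 (chromosome 1, 134075170 to 134079120, minus strand) was at 69.9, 62.9, 59.8 and 67.8 TPM at day 12, against 164, 141, 141 and 144 TPM in naive cells. For Btg2, skin (1202, 1203, 746 and 239.7 TPM) and liver (805, 567, 549.9 and 695 TPM) overlapped each other, and tumor was lowest of all groups (51.3, 39.0, 52.8 and 21.7 TPM, against 132, 167, 106 and 265 TPM in spleen). Liver was above lymph node memory, naive cells above day 12, and day 12 above tumor, each without overlap.

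The comparison of day 12 with naive cells sets the members in the group with the most proliferation RNA against the group with the least. Day 12 cells held more Cdkn1a, Cdkn2a, Cdkn2c and Gadd45b RNA and less Btg1 RNA than naive cells. Cdkn1a rose by 3.55 ± 0.46 log2 (adjusted p = 1.36e-06), Cdkn2c by 2.52 ± 0.65 (0.00899), Gadd45b by 1.99 ± 0.41 (0.000921) and Cdkn2a by 1.39 ± 0.41 (0.024). Btg1 fell, with a log2 change of -2.75 ± 0.40 (adjusted p = 8.88e-06). Btg2 had a change of -1.17 ± 0.41 (adjusted p = 0.067) and Cdkn1b one of -0.87 ± 0.45 (0.258), and neither passed the test although their groups did not overlap. The same held for Gadd45g, with a change of 1.09 ± 0.43 (adjusted p = 0.109), and for Cdkn2d, with -0.35 ± 0.38 (0.692). With 4 members higher and 1 lower of 10, the share called stood beside 11.1% of all genes tested, 5.95% higher and 5.14% lower. The median change of the members was 0.37, against -0.19 over all genes tested. The call of Cdkn2a ended when any of 5 of the 8 libraries was left out, and that of Cdkn2c (adjusted p = 0.109) with a pseudocount of 0.1. With only these 2 groups fitted, whose spread is the least, all 10 members passed, and so did 54.4% of all genes.

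The genes around the members moved as follows between day 12 and naive cells. All 30 proliferation genes were higher at day 12 (median log2 change 4.72), among them Birc5 (7.21), Rrm2 (6.59), Aurkb (6.09) and Plk1 (6.02). Of 20 cyclins, their kinases and E2F partners, 12 were higher and none lower (median 2.38), led by Ccnb2 (7.43), Ccna2 (6.87), Ccnb1 (6.40) and Cdk1 (6.13), which drive mitotic entry. Of 25 other brakes and quiescence factors, none was higher and 5 were lower: Bach2 (-3.84), Foxp1 (-2.36), Txnip (-1.94), Tsc1 (-1.57) and Foxo1 (-1.52), genes known for holding T cells in the naive or resting state (median of the list -0.47). Of 23 other p53 targets tested, 2 were higher (Pmaip1 by 2.91 and Sesn2 by 1.26) and Sesn1 was lower (-3.41). Of the 10 kinases that partner with Gadd45 proteins, Map2k3 (2.002) and Mapk11 (1.78) were higher, and of 12 deadenylase subunits and poly(A) binding proteins 0 were called in either direction with limma, while 11.1% of all genes were. Of the 5 cyclin-kinase inhibitors among the members, 3 were thus higher at day 12, along with the cyclins, and Cdkn1b and Cdkn2d did not pass the test.

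**Figure D2:**
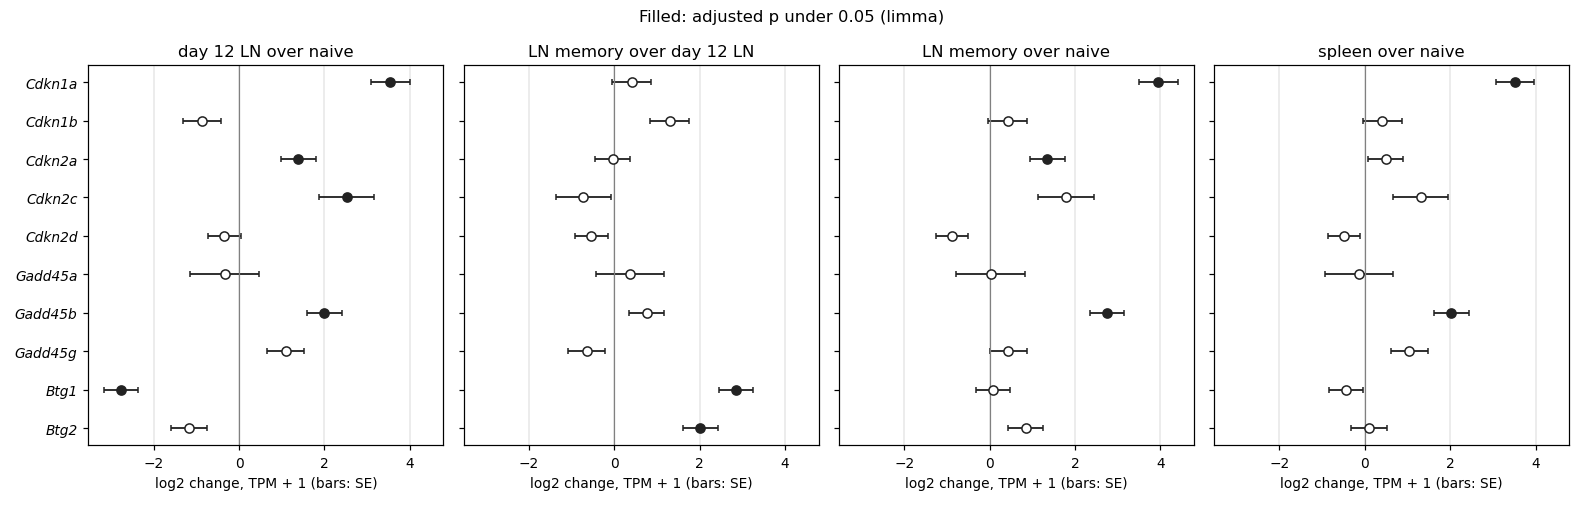
Log2 changes of the 10 members with their SE in 4 comparisons among lymphoid groups, each named with its first group over its second. Filled points are called, and Btg1 lies at -2.75 for day 12 over naive cells and at 2.84 for lymph node memory over day 12.

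Lymph node memory cells held more RNA of both Btg genes than day 12 cells. Btg1 rose by 2.84 ± 0.40 log2 (adjusted p = 2.69e-05) and Btg2 by 2.01 ± 0.41 (0.00193), each without overlap between the groups. Cdkn1b had a change of 1.30 ± 0.45 (adjusted p = 0.0793), Gadd45b 0.76 ± 0.41 (0.305), and Cdkn1a 0.41 ± 0.46 (0.716), and none of these passed the test. The 2 members higher and 0 lower stood beside 7.41% of all genes, 4.42% higher and 2.99% lower, and the members' median was 0.38, against 0.26 over all genes. Of the proliferation genes 29 of 30 fell (median -3.06) and of the cyclins and kinases 11 of 20 fell, while Ccnd2, the D-type cyclin of lymphocytes, rose by 2.26. Of the other brakes 6 of 25 rose and none fell, led by Txnip (2.51), Bach2 (1.86), Foxp1 (1.45) and Btg3 (1.44).

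Against naive cells, lymph node memory cells differed most in Cdkn1a and Gadd45b. Cdkn1a rose by 3.95 ± 0.46 log2 (adjusted p = 4.48e-07) and Gadd45b by 2.75 ± 0.41 (2.62e-05), both without overlap. Cdkn2a, higher by 1.35 ± 0.41 (adjusted p = 0.0417), lost its call without any 1 of the 8 libraries, with adjusted p between 0.0556 and 0.114. Btg1 had a change of 0.09 ± 0.40 and Btg2 one of 0.84 ± 0.41 (adjusted p = 0.343), and neither passed. Cdkn2c had a change of 1.80 ± 0.65 (adjusted p = 0.114) and Cdkn2d one of -0.88 ± 0.38 (0.238). Neither of these passed, although their groups did not overlap. Both passed with weights per group, in a limma fit that called 4308 of 19738 genes. The 3 members higher and 0 lower stood beside 6.52% of all genes, 4.61% higher and 1.9% lower, with a members' median of 0.64 and an all-gene median of 0.06. Cdkn1a without its high lymph node library, replicate 3, was still called. In this comparison 13 of 30 proliferation genes were higher, and among the other brakes Klf2 (-2.23), Bach2 (-1.98) and Foxo1 (-1.59) were lower and Cdkn2b, the INK4 gene of p15, was higher by 1.90.

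Spleen cells differed from naive cells in the same 2 members, which share the naive libraries with the comparison before. Cdkn1a rose by 3.52 ± 0.46 log2 (adjusted p = 4.25e-06) and Gadd45b by 2.03 ± 0.41 (0.00169), and the groups did not overlap for either gene. Cdkn2c had a change of 1.31 ± 0.65 (adjusted p = 0.279) and Gadd45g one of 1.04 ± 0.43 (0.17), and neither passed. The 2 members higher and 0 lower stood beside 6.08% of all genes, 3.62% higher and 2.46% lower (members' median 0.45, all genes -0.05). Set directly against spleen, lymph node memory cells had 0 members called with limma, where 0.481% of all genes were called, 0.36% higher and 0.122% lower. At an unadjusted p under 0.05, 1916 of 19738 genes passed in that comparison, and of the 10 members only Cdkn2a did. Its log2 change was 0.86 ± 0.41 (adjusted p = 0.502), at low levels of 0 to 1.36 TPM in spleen and 1.23 to 1.89 in lymph node memory libraries. Leaving out the low-identity libraries, Btg1 (0.70, adjusted p = 0.0394) and Btg2 (0.996, 0.0396) were called there, in a fit that called 11.7% of all genes.

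Skin cells held much more Cdkn1a and Gadd45b than spleen cells, and also more Gadd45g, Btg2 and Btg1. Cdkn1a rose by 5.47 ± 0.46 log2 (adjusted p = 3.05e-09) and Gadd45b by 5.23 ± 0.41 (1.6e-09), with every skin library above every spleen library. Gadd45g rose by 2.68 ± 0.43 (adjusted p = 8.89e-05), Btg2 by 2.17 ± 0.41 (0.000735) and Btg1 by 1.43 ± 0.40 (0.0219). Gadd45a had a change of 2.34 ± 0.80 (adjusted p = 0.0729), Cdkn1b -1.04 ± 0.45 (0.194) and Cdkn2d -1.01 ± 0.38 (0.115), and none of these passed. The 5 members higher and 0 lower stood beside 7.68% of all genes, 4.33% higher and 3.34% lower, and the members' median of 1.80 beside an all-gene median of -0.12. The call of Btg1 ended in 4 of the 8 fits that left out 1 library, with only the 2 groups fitted (adjusted p = 0.226), and with weights per group (0.0519). With only the 2 groups fitted, Btg2 (0.123) also lost its call.

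Skin replicate 4, which had the least T cell identity RNA and the most keratinocyte RNA of the 4 skin libraries (5647 and 5880 TPM), was the lowest of them for all 10 members. This was not particular to the members, since it also had the lowest mean log2 level of every related gene list. For proliferation genes that level was 3.278, with the other skin libraries at 4.069 to 4.565. For immediate early genes it was 6.929, with the others at 8.427 to 8.855. The share of all genes lowest in this library was not computed. Leaving out the 6 low-identity libraries, skin over spleen changes were 5.64 for Cdkn1a, 5.89 for Gadd45b, 3.18 for Gadd45g, 2.94 for Btg2 and 2.04 for Btg1, each at least as large as with them, while Gadd45a passed as higher (3.15, adjusted p = 6.57e-06) and Cdkn2d as lower (-0.81, 0.0377). That fit called 16.5% of all genes. Among the fits that left out 1 library, Gadd45a passed only without spleen replicate 4 (2.92, adjusted p = 0.0279), where limma called 1471 of 19738 genes. Spleen replicate 4 held 27.15 TPM of Gadd45a, with the other spleen libraries at 1.34 to 10.1. It was also the highest spleen library for Gadd45b, Gadd45g, Btg1 and Btg2. Immediate early genes, which cells switch on quickly when stimulated, moved with the members called as higher in skin. Of 27, 25 were higher in skin than in spleen and none lower (median 3.78), led by Fos (7.57), Nr4a1 (7.48), Atf3 (6.82) and Nr4a2 (6.47). Their part in the result was not tested.

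Genes of the surrounding pathways were set beside the members in skin. Of 23 p53 targets tested besides the members, 3 were higher than in spleen and none lower: Perp (4.64), Plk2 (3.03) and Pmaip1 (2.65), with a list median of 0.22. Perp is also a desmosome gene of keratinocytes. Of the 10 Gadd45 partner kinases, Mapk13, a p38 isoform, rose by 2.57 and Map2k3, a p38 activator, by 1.57. No cyclin or kinase gene of 20 and no proliferation gene of 30 was called in either direction with limma, with medians of 0.12 and 0.02. Of the 25 other brakes, 6 were higher and 4 lower, with a list median of 0.12. Among them were Klf4 (4.32), Klf6 (2.14), Tob2 (2.08) and Tob1 (1.98) as higher and Klf2 (-3.82) as lower. The remaining called brakes, higher and lower, are not named. Klf6 also counts as an immediate early gene, and Tob1 and Tob2 belong to the same protein family as Btg1 and Btg2.

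Set against lymph node memory cells, skin cells again differed most in Cdkn1a and Gadd45b. Cdkn1a rose by 5.03 ± 0.46 log2 (adjusted p = 2.5e-08), Gadd45b by 4.51 ± 0.41 (2.5e-08) and Gadd45g by 3.28 ± 0.43 (9.05e-06), with no overlap between the groups. Btg2, higher by 1.42 ± 0.41 (adjusted p = 0.0307), lost its call in 6 of the 8 fits that left out 1 library, without a filter (0.0536) and with only the 2 groups fitted (0.153). Btg1 had a change of 0.89 ± 0.40 (adjusted p = 0.184) and Gadd45a one of 2.19 ± 0.80 (0.0951). The 4 members higher and 0 lower stood beside 7.48% of all genes, 3.18% higher and 4.31% lower, with a members' median of 1.16 and an all-gene median of -0.25. Of the immediate early genes 20 of 27 were higher in skin than in lymph node memory cells.

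Liver cells had 4 members called against spleen, each also called as higher in skin, and the 2 comparisons share the spleen libraries. Cdkn1a rose by 3.42 ± 0.46 log2 over spleen (adjusted p = 2.57e-05), Gadd45b by 2.53 ± 0.41 (0.000228), Gadd45g by 2.20 ± 0.43 (0.00175) and Btg2 by 2.03 ± 0.41 (0.00245), each with every liver library above every spleen library. The 4 members higher and 0 lower stood beside 13.6% of all genes, 2.45% higher and 11.1% lower, with a members' median of 0.44 and an all-gene median of -0.53. Of the immediate early genes 20 of 27 were higher in liver and none lower (median 3.28), and their part in these changes was not tested. Liver replicate 1, the only one with T cell identity RNA like that of other groups (28292 TPM), held 340.5 TPM of Cdkn1a, 331 of Gadd45b, 50.6 of Gadd45g and 805 of Btg2. It had the least myeloid (1966 TPM) and hepatocyte RNA (862) of the liver libraries, but also 29573 TPM of erythroid RNA. Liver spread most of all groups, and with only liver and spleen fitted 0 of all 19738 genes were called with limma, the members included (adjusted p between 0.12 and 0.302 for the 4). Leaving out the low-identity libraries, which keeps that 1 liver library under the assumption that it varies like the rest, Gadd45g had an adjusted p of 0.0665, the other 3 were called, and Gadd45a (2.46, 0.0138) and Btg1 (1.77, 0.00245) were called as well, in a fit that called 4.7% of all genes.

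In lung cells only Cdkn1a was called against spleen, by 2.22 ± 0.46 log2 (adjusted p = 0.0383), and the 4 lung libraries at 65.3 to 77.0 TPM were all above the spleen libraries at 9.50 to 21.4. That 1 member higher and 0 lower stood beside 0.111% of all genes, 0.0507% higher and 0.0608% lower (members' median 0.35, all genes 0.04). The call ended without a filter on low values, with a pseudocount of 0.1, with only the 2 groups or with weights per group, and in 6 of 8 fits that left out 1 library, where adjusted p reached 0.111. Of the immediate early genes only Rgs1 was called in lung (2.53), while their median was 0.99. Gadd45b (0.44 ± 0.41), Gadd45g (0.09 ± 0.43) and Btg2 (0.63 ± 0.41), the other members called in both skin and liver, did not pass in lung. Whether lung differed from skin or liver in these genes was not tested.

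**Figure D3:**
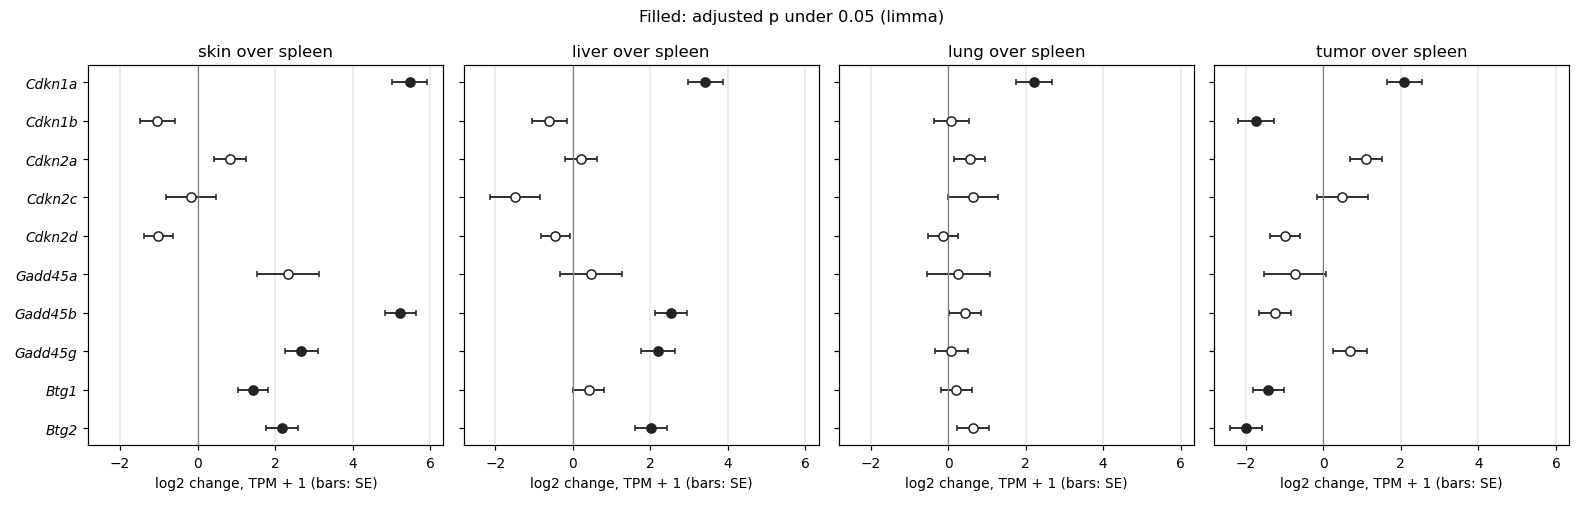
Log2 changes of the 10 members with their SE in 4 comparisons, skin, liver, lung and tumor cells each over spleen. Filled points are called, and Cdkn1a is called as higher in all 4, from 2.09 for tumor to 5.47 for skin.

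Tumor cells held more Cdkn1a and less Cdkn1b, Btg1 and Btg2 than spleen cells. Cdkn1a rose by 2.09 ± 0.46 log2 (adjusted p = 0.00375). Btg2 fell, with a change of -1.99 ± 0.41 (0.00234), Cdkn1b with -1.74 ± 0.45 (0.0168) and Btg1 with -1.42 ± 0.40 (0.0278), and for all 4 genes the groups did not overlap. Gadd45b had a change of -1.25 ± 0.41 (adjusted p = 0.067), Cdkn2d -0.99 ± 0.38 (0.131) and Cdkn2a 1.09 ± 0.41 (0.12), and none of these passed. The 1 member higher and 3 lower stood beside 6.25% of all genes, 3.42% higher and 2.82% lower, with a members' median of -0.86 and an all-gene median of -0.03. The calls of Btg1 and Cdkn1b ended in 4 and 3 of the 8 fits that left out 1 library, where adjusted p reached 0.144 and 0.0602. RNA of other cells also differed, with higher mean sums in tumor than in spleen for erythroid genes (6541 against 608 TPM). The same held for keratinocyte (886 against 5.84), melanocyte and melanoma (497 against 10.3), and stromal and endothelial genes (246 against 33.5). Of those 246 TPM, Pecam1 alone gave 238, and naive cells held it at 70.5. Lower in tumor were B cell (202 against 5342), myeloid (641 against 3274) and NK cell genes (10.2 against 39.2). Hepatocyte (7.77 against 144) and lung epithelial genes (1.31 against 7.70) were lower too. The part of this RNA in the member changes was not tested.

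Tumor cells came next to day 12 cells in proliferation RNA, and were set against spleen and day 12 alike. Of 30 proliferation genes 15 were higher in tumor than in spleen and none lower (median 1.83), and of the 25 other brakes none was higher and 5 were lower, Klf2 (-5.83), Txnip (-3.05), Tob1 (-2.07), Foxo1 (-1.88) and Bach2 (-1.79). Of 27 immediate early genes 2 were higher and 3 lower in tumor than in spleen (median 0.03). Against day 12, Cdkn1a was the 1 member called, higher in tumor by 2.06 ± 0.46 log2 (adjusted p = 0.00467) with no overlap, while 8 of 30 proliferation genes were lower and none higher. That 1 member higher and 0 lower stood beside 6.97% of all genes, 4.55% higher and 2.42% lower (members' median -0.49, all genes 0.03). Gadd45b (-1.21 ± 0.41, adjusted p = 0.0703), Cdkn2d (-1.14 ± 0.38, 0.0674) and Btg1 (0.89 ± 0.40, 0.188) did not pass, and all 3 passed with weights per group, a setting in which 7 members and 45.3% of all genes were called.

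**Figure D4:**
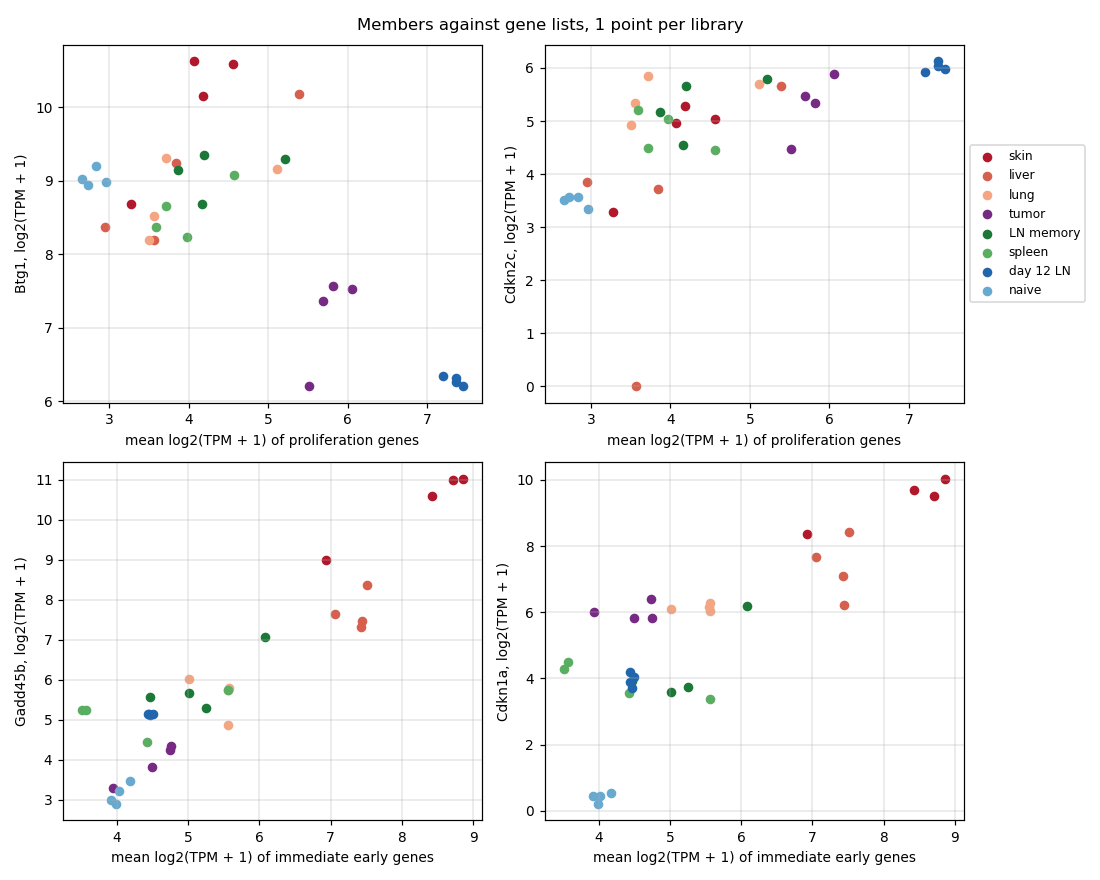
Log2(TPM + 1) of Btg1 and Cdkn2c (upper row, against proliferation genes) and of Gadd45b and Cdkn1a (lower row, against immediate early genes) plotted by the mean log2(TPM + 1) of a gene list, 1 point per library, coloured by group. Skin and liver libraries lie at the right for immediate early genes (6.93 to 8.86), and tumor libraries hold Cdkn1a at 55.3 to 83.7 TPM at an immediate early level of 3.94 to 4.75.

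The lists give each group a level that the members can be read beside. The mean log2 level of the proliferation genes was 7.34 ± 0.10 at day 12, 5.77 ± 0.23 in tumor, 4.36 ± 0.59 in Mem_LN, 4.02 ± 0.54 in skin, 3.98 ± 0.77 in lung, 3.96 ± 0.43 in spleen, 3.94 ± 1.04 in liver and 2.80 ± 0.13 in naive cells. The immediate early genes had a mean log2 level of 8.23 ± 0.89 in skin, 7.36 ± 0.21 in liver, 5.43 ± 0.27 in lung, 5.21 ± 0.67 in Mem_LN, 4.48 ± 0.38 in tumor, 4.46 ± 0.03 at day 12, 4.27 ± 0.96 in spleen and 4.03 ± 0.11 in naive cells. Cdkn1a averaged 64.6 TPM in tumor and 70.01 in lung, against 14.7 at day 12, and the immediate early level of these groups was 4.48, 5.43 and 4.46. All lung libraries (5.02 to 5.57) were above all day 12 libraries (4.43 to 4.50) in that level, while tumor libraries (3.94 to 4.75) overlapped them. Gadd45b was at 14.8 TPM in tumor, against 34.2 at day 12. Whether these genes follow the immediate early level was not tested.

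Over the 32 libraries, the genes whose log2 level ran most like that of a member differed between the families, as a description over libraries that share groups. Cdkn1a ran most like Ifng (r = 0.92), the interferon gamma gene, then Rgs1 (0.91), a gene of the immediate early list, and Dusp5 (0.90). Gadd45b ran most like the AP-1 gene Junb (0.92), Gch1 (0.92) and Errfi1 (0.92), and Gadd45g like Atf3 (0.88), Ier3 (0.82) and Cxcl10 (0.80). Both thus had an immediate early gene at the top. Btg2 was closest to another of these, Ier2 (0.93), then Gpr183 (0.93) and Dnajb9 (0.92), while Btg1 was closest to Pnrc1 (0.89), Neurl3 (0.88) and Pde4b (0.88). Gadd45a had Chka (0.83), Smox (0.81) and Dnajb4 (0.81). The nearest genes of the inhibitors other than Cdkn1a were Son (0.90), Dpm3 (0.86) and Rnasek (0.86) for Cdkn1b, Sec11c, Foxd2os and Pqlc3 (0.93 each) for Cdkn2c, Bin2 (0.88), Cdc42se1 (0.87) and Aven (0.87) for Cdkn2d, and Mlf1 (0.82), Xcl1 (0.77) and Tigit (0.76) for Cdkn2a. Over the 8 group means, the nearest genes were Ndrg1 for Cdkn1a, Son for Cdkn1b, Il2rb for Cdkn2a, Magohb for Cdkn2c, Dtx1 for Cdkn2d, Sertad1 for Gadd45a, Ubb for Gadd45b, Ier3 for Gadd45g, Fndc3a for Btg1 and Dnajb9 for Btg2, with r between 0.94 and 0.98. Between members, Btg1 and Btg2 had the highest r (0.85, and 0.79 over the 28 libraries without skin), Cdkn1a and Gadd45b had 0.83 (0.71 without skin), and Cdkn1a and Cdkn2d the lowest (-0.57).

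The promoters of Cdkn1a and Gadd45b are shown because these members changed most in skin, and those of Btg1 and Btg2 because both were called as higher in lymph node memory cells than at day 12. They were chosen after their values were seen. They are RefSeq windows on GRCm38.p6 of 300 bases, from 250 before to 50 after the start of the gene, printed 5′ to 3′ on the gene's strand, with motif matches in capitals. All 10 members had such a window. Cdkn1a has a pair of windows, of which chr17:29090729-29091028 (plus strand) is printed and chr17:29093519-29093818 held no searched motif. The windows printed for the others are, for Gadd45b chr10:80929841-80930140 (plus), for Btg1 chr10:96616751-96617050 (plus) and for Btg2 chr1:134079106-134079405 (minus).
Cdkn1a: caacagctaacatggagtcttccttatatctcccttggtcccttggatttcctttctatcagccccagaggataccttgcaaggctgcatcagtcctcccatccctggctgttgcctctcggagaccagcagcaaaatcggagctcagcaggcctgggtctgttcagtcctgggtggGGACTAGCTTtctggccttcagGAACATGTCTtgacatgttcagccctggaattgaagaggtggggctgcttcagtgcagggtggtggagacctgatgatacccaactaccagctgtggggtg
Gadd45b: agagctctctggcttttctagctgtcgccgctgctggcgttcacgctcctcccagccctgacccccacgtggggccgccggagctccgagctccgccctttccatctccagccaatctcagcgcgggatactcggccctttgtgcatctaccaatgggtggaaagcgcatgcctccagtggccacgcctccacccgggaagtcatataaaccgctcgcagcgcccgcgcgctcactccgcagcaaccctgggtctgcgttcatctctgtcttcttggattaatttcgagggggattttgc
Btg1: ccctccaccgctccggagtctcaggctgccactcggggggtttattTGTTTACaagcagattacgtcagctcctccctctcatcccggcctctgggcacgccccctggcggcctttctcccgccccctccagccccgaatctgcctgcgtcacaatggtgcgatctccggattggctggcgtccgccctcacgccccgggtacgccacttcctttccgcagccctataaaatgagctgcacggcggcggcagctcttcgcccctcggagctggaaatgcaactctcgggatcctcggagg
Btg2: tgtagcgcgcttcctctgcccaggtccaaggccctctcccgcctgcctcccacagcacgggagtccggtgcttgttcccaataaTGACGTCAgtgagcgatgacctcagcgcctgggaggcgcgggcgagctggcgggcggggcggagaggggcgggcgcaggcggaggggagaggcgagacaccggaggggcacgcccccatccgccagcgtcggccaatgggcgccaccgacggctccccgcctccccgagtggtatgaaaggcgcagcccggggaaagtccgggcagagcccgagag
Letters were searched on both strands for AP-1 (TGANTCA), CRE (TGACGTCA), FOXO (TGTTTAC), E2F (TTTCCCGC), NF-kappaB, SRF and the 10-letter unit of the p53 site, of which a full site needs a pair. The capitals in Cdkn1a mark 2 such p53 units, which begin 73 and 51 bases before the start. Those in Btg1 mark 1 FOXO match that begins 204 bases before the start, and those in Btg2 1 CRE match that begins 166 bases before it. No searched motif was matched in the Gadd45b window. Of 32851 promoter windows of this length, 8.36% held a p53 unit, 3.65% FOXO, 1.79% CRE, 7.81% AP-1, 1.07% E2F, 8.46% NF-kappaB and 1.63% SRF. A match describes letters in the window and shows no binding.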

How the data were processed

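The submitters' processing notes name Bowtie and the mm10 build, and no counting step was given in the sources used here. The authors deposited natural log values of TPM + 1, a unit settled from the values, since each library converted back sums to between 999999 and 1000001 TPM. They were converted to log2(TPM + 1), which understates changes of low genes. The 19738 genes that reached 1 TPM in 4 libraries or more entered 1 limma 3.58.1 fit (R 4.3.3, trend on abundance) of all 8 groups, with 24 residual degrees of freedom and Benjamini-Hochberg adjustment per comparison over 11 comparisons. The fit was tested on simulated data. Correlations were computed in R 4.3.3. Levels and figures were made with Matplotlib 3.10.9, SciPy 1.17.1, pandas 2.3.3 and NumPy 2.4.6 in Python 3.11.15. Positions come from GENCODE vM21 on mm10.

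Members and lists were chosen with earlier results of these data known. All members are named, with up to 4 called genes per list by size (all 5, chosen after their values were seen, where a list's count was 5) and the 3 genes most correlated with each member among those with a mean log2 of at least 3. For the other brakes in skin over spleen, more genes than the limit of 4 are named, though not all that were called. Of 24 listed p53 targets, 1 did not pass the filter. Alternatives were no filter, a filter of 5 TPM, a pseudocount of 0.1, only the 2 groups, weights per group, a replicate block, quantile normalization, leaving out the 6 libraries of low T cell identity, and leaving out each library. Same-numbered replicates were checked for shared deviations, and in no comparison did all 4 pairs correlate above 0.1. Single pairs ran from r = -0.393 (replicate 1 of tumor and spleen) to 0.467 (replicate 4 of skin and lymph node memory). The check thus cannot exclude that the numbers pair samples, and the main fit modelled no pairing.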

Additional observations from a re-analysis of the deposited data

Results flagged for a closer look

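In each of the 80 groups of 4 libraries, 1 per member and group, the highest and lowest library were set against the others on the scale of log2(TPM + 1). A gap above Dixon's 95% critical value singles a library out, which chance does in about 1 of 20 groups, and 6 groups met it. Lymph node memory replicate 3 was high for Cdkn1a, at 71.9 TPM where the nearest library held 14.1 TPM. The same library was also the highest of its group for Gadd45b (133 TPM), short of that gap on the log2 scale. It held the most keratinocyte (98.6 TPM), erythroid (619), hepatocyte (44.1) and lung epithelial RNA (23.0) of its group. The next libraries held 6.97, 36.1, 14.1 and 2.79 TPM. Its T cell identity sum was the highest too (37061 TPM), while replicate 4 was highest for the B cell, myeloid, melanocyte, NK and stromal lists. The part of this RNA was not tested. Skin replicate 4, a library of low T cell identity, was low for Cdkn1b, at 2.29 TPM with the nearest at 12.6 TPM. It was also low for Cdkn2c, at 8.70 TPM with the nearest at 30.0 TPM. Lymph node memory replicate 4 was low for Cdkn1b, at 10.6 TPM with the nearest at 23.7 TPM. Tumor replicate 4, another library of low T cell identity, was low for Btg1, at 73.2 TPM with the nearest at 163 TPM. Naive replicate 3 held 0.08 TPM of Cdkn2a where the other 3 naive libraries listed it at 0.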

How the results depend on the processing

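Of 110 member changes, 31 were called, and 18 of these kept their call and direction under every alternative in which they were tested. With only the 2 groups fitted, the members called were 10 for day 12 over naive, 5 for lymph node memory over day 12, 6 for lymph node memory over naive, 3 for skin over spleen, 0 for lung over spleen, 0 for liver over spleen and 6 for tumor over day 12. With weights per group they were, in the same order of comparisons, 9, 7 and 6, then 5 for skin, 0 for lung, 1 for liver and 7 for tumor over day 12. Leaving out the low-identity libraries, they were 8 for day 12 over naive, 4 for lymph node memory over day 12, 5 for lymph node memory over naive, 4 for spleen over naive, 2 for lymph node memory over spleen and 4 for tumor over day 12. The share of all genes called moved with these counts: for the comparisons named it was 54.4%, 35.1%, 20.1%, 1.37%, 0%, 0% and 41.4% with only the 2 groups, 56.7%, 38.1%, 21.8%, 5.6%, 0.0304%, 0.932% and 45.3% with weights, and 22.9%, 20.2%, 12.4%, 22%, 11.7% and 11.8% without the low-identity libraries. Lung over spleen also gave 0 without a filter and 0 with a pseudocount of 0.1, and tumor over day 12 gave 2 with quantile normalization. Leaving out 1 library gave 4 to 5 members for day 12 over naive, 2 to 3 for lymph node memory over day 12, 2 for lymph node memory over naive, 4 to 6 for skin over spleen, 3 to 5 for skin over lymph node memory, 0 to 1 for lung over spleen, 4 to 5 for liver over spleen and 2 to 4 for tumor over spleen. Without the low T cell identity libraries, liver over spleen reversed for Cdkn2c (0.75) and Cdkn2d (0.77), neither called in the full fit. Leaving out 1 library, Cdkn2d in liver over spleen ran between -0.88 and 0.008. The causes were not tested. Quantile normalization moved the median change of all genes from -0.53 to -0.08 for liver over spleen, from 0.26 to 0.01 for lymph node memory over day 12 and from -0.25 to -0.04 for skin over lymph node memory, and the share of called genes that were higher from 18.1% to 55.3%, from 59.7% to 37.5% and from 42.5% to 55.9%. It moved that share from 65.3% to 48.2% for tumor over day 12, from 70.8% to 57.9% for lymph node memory over naive, from 74.7% to 63.0% for lymph node memory over spleen and from 59.5% to 48.2% for spleen over naive. It reversed no called member. The replicate block moved no member count by more than 1.5 times (5 for day 12 over naive), and whether the replicate numbers pair samples is unknown. Cdkn2a was not tested under the filter of 5 TPM. Depth is unknown, so counting error could not be given.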
